A study of Mus musculus with 4 samples.

Results

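The genes described here are 32 genes of the cellular response to low oxygen and of glycolysis, chosen by name from the 31253 genes of the count tables, in immune cells sorted from an experimental brain tumor. Cells respond to a fall in oxygen through hypoxia-inducible factor (HIF). With oxygen present, prolyl hydroxylases mark the HIF alpha subunit for destruction, and without it HIF enters the nucleus and binds short DNA motifs beside its target genes. Those targets include glucose and lactate transporters, nearly every glycolytic enzyme, the angiogenic factor Vegfa and genes of mitochondrial turnover. In tumors, myeloid cells in poorly perfused regions are known for switching this program on, and activated lymphocytes raise glycolysis with or without a lack of oxygen. The 32 genes were grouped by role into 2 oxygen sensors, 11 HIF target genes that act inside the cell, 3 secreted factors, 2 transporters, 12 glycolytic enzymes and 2 genes that set the fate of pyruvate.

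CT2a glioma cells, a mouse astrocytoma line, had been implanted in the brains of CaMKK2 wild-type mice (WT) and of mice lacking the kinase CaMKK2 in all tissues (CaMKK2-/-, here CaMKK2KO), both on a C57Bl/6 background, and live CD45+ cells of the tumor-bearing hemispheres were profiled 14 days later. Each genotype had 4 mice, and the study used female mice of 8 to 12 weeks. The 4 mice of a genotype carried hashtag antibodies and shared 1 droplet channel, so genotype and channel cannot be told apart in any WT against CaMKK2KO comparison. The knockout is global, so a difference in one cell type may arise in another, which was not tested.

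After removal of cells with tags of more than 1 mouse or none, of outlying cells and of likely doublets, 10800 cells were kept (5136 WT and 5664 CaMKK2KO), with 1032 to 1670 cells and 12064403 to 20502216 unique molecular identifiers (UMIs) per mouse. The channels shared 42 cell barcodes, 8 of them among the cells kept. Cells were put in classes by fixed markers, and the classes analysed were macrophage-like (3981 cells), monocyte-like (1201), NK-like (1362), CD8 T-like (767), conventional dendritic cell (cDC)-like (723), microglia-like (592) and CD4 T-like (472). WT mouse 1 had few cells in several of them, with 7 CD4 T-like, 17 CD8 T-like and 21 monocyte-like cells. The macrophage and monocyte classes met along a continuum, with 628 macrophage-like cells exactly at the lowest number of macrophage markers accepted and 536 monocyte-like cells exactly at the highest. All values below are sums of UMIs over the cells of a mouse and class, given as CPM, which scales the sum to the total UMIs of that mouse and class. UMIs of this assay come from the 3′ ends of transcripts, and levels are compared between classes and mice and not between genes. Camkk2 itself, read at the 3′ end, lay between 25.0 and 39.2 CPM in macrophage-like cells of WT mice and between 13.1 and 18.85 CPM in those of CaMKK2KO mice, and in macrophage-like, microglia-like and monocyte-like cells it was lower in the knockout (adjusted p = 0.0187, 0.0405 and 0.00573, edgeR's quasi-likelihood test). In cDC-like cells the same test did not call it (log2 difference -0.64 ± 0.25 SE, adjusted p = 0.222), and in the other classes it was not tested.

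HIF binds the core letters ACGTG or GCGTG. The RefSeq promoter table (GRCm38.p6) held 30 of the 32 genes, and 28 of the 30 (93.3%) had at least 1 such core on either strand in the 300 bases from 250 before to 50 after an annotated start, against 46.7% of 27025 genes. At least 2 cores were found for 22 of them (73.3%), against 22.9% of all genes. Each gene was scored by its window with the most cores. The 30 genes had 44 windows and the 27025 genes 32851, so the 30 had more windows per gene. The windows of these 30 genes were also richer in G and C, with a median of 64.5% against 52.7%, and a core counts as 2 where it reads the same on both strands (CACGTG). Gpi1 and Tpi1 had no core in this window. The 250 bases before the start are shown for 4 genes that recur below, each in the direction of transcription with the cores in capitals. They are Bnip3 (chr7:138909507-138909756, minus strand), whose level followed the hypoxia genes most closely from cell to cell, Pgk1 (chrX:106186850-106187099, plus strand) and Ldha (chr7:46845554-46845803, plus strand, inside the annotated span of the gene), which encode enzymes of glycolysis and lactate production, and Pfkp (chr13:6648772-6649021, minus strand), which differed between the genotypes in NK-like cells.
Bnip3: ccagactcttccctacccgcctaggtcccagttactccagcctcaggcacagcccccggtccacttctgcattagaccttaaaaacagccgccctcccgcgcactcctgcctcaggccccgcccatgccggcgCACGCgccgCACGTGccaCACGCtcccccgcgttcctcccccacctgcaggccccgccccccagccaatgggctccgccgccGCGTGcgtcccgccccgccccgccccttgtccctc
Pgk1: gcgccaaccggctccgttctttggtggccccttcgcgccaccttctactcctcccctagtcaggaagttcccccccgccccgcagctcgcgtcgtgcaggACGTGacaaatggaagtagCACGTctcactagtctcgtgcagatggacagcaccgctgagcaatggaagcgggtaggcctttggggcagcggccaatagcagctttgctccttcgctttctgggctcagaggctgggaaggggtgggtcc
Ldha: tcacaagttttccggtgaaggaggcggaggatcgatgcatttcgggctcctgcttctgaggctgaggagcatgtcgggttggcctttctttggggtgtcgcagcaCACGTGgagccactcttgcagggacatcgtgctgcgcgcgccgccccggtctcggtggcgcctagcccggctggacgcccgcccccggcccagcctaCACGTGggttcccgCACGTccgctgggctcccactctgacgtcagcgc
Pfkp: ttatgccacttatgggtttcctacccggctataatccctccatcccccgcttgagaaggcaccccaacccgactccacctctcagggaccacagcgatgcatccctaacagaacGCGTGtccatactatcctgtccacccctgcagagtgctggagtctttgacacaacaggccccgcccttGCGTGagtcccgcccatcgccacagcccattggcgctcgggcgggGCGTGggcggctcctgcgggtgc
These matches describe the letters of the windows, and binding was not measured.

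Across the 7 immune classes the genes did not share a single peak. By the mean over the 8 mice, 12 genes were highest in monocyte-like cells, 7 in macrophage-like, 6 in CD4 T-like, 3 in cDC-like, 3 in microglia-like and 1 in CD8 T-like cells. Averaged over the 32 genes, log2(CPM + 1) was 6.88 ± 0.19 in monocyte-like (SD over the 8 mice), 6.69 ± 0.33 in macrophage-like, 6.10 ± 0.46 in CD4 T-like, 5.94 ± 0.31 in CD8 T-like, 5.89 ± 0.17 in cDC-like, 5.87 ± 0.16 in microglia-like and 5.75 ± 0.18 in NK-like cells, so that the classes below macrophage-like differed from their neighbours by less than that spread. In B-like cells it was 4.54 ± 0.43. Vegfa, the main growth factor for blood vessels, reached 188 ± 78.6 CPM in monocyte-like and 152 ± 54.4 CPM in macrophage-like cells (SD, n = 8 mice), and was at 63.2 ± 18.8 CPM in NK-like cells and 4.29 ± 4.03 CPM in CD8 T-like cells. The monocyte-like and macrophage-like ranges overlapped, while the NK-like level lay well above that of both T cell classes. Hk2, the inducible hexokinase that traps glucose in the cell, followed another order, with 233 ± 32.8 CPM in microglia-like, 165.5 ± 41.4 in monocyte-like, 125 ± 27.0 in macrophage-like and 11.7 ± 2.06 CPM in NK-like cells. Bhlhe40, a transcriptional repressor induced by hypoxia and by activation of lymphocytes, was highest in cDC-like cells (403 ± 107 CPM) and high in CD8 T-like (298.5 ± 62.4), NK-like (268 ± 31.1) and CD4 T-like cells (243 ± 87.4), and was at 23.3 ± 17.2 CPM in microglia-like cells.

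**Figure D1:**
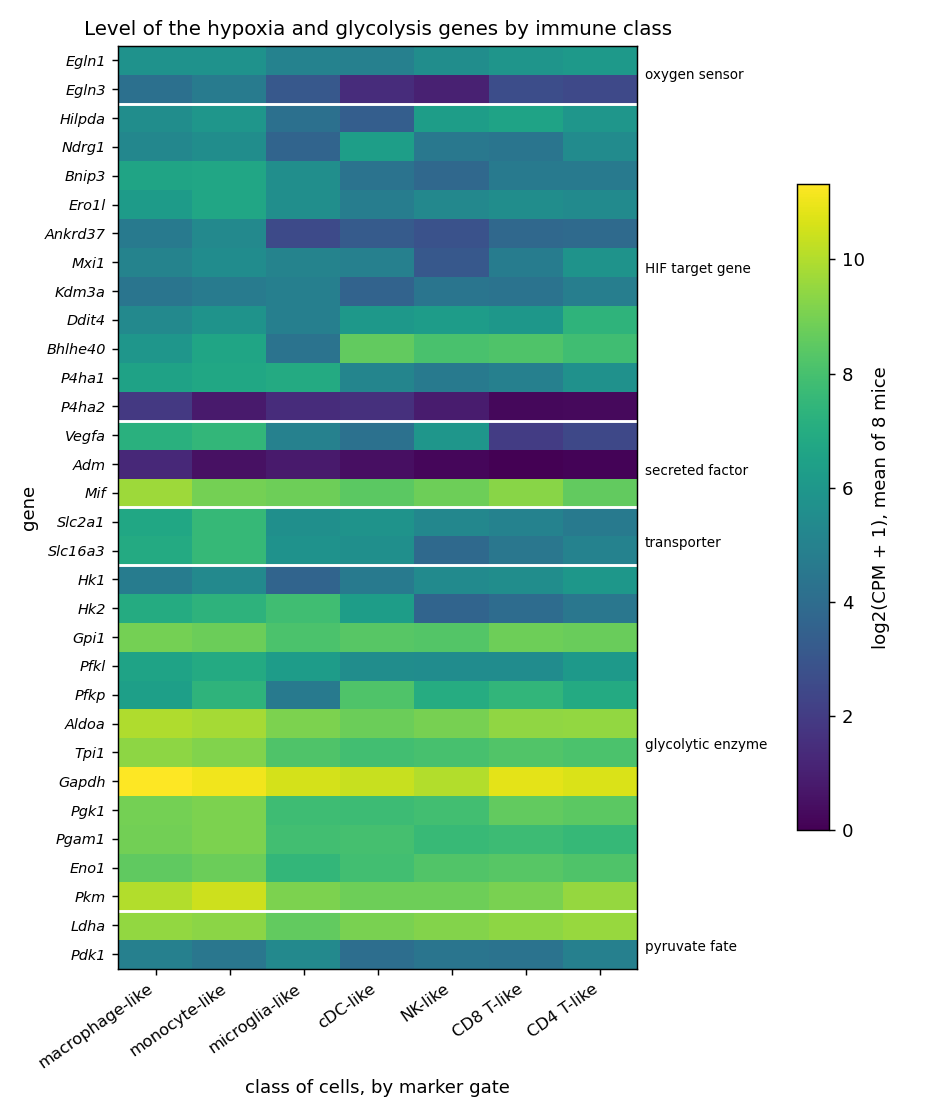
Level of each of the 32 genes in the 7 immune classes, as the mean over 8 mice of log2(CPM + 1), genes ordered by role. Brighter colors are higher levels. The glycolytic enzymes are mostly brightest in the macrophage-like and monocyte-like columns, while Bhlhe40 and Pfkp are brightest in cDC-like and Ddit4 in CD4 T-like cells.

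The glycolytic enzymes were mostly higher in macrophage-like and monocyte-like cells than in lymphocytes, with exceptions by isoform. Gapdh, which makes the first NADH of the pathway, was at 2574 ± 401 CPM in macrophage-like, 2185 ± 270 in monocyte-like, 1898 ± 383 in CD8 T-like and 1045 ± 136 CPM in NK-like cells. Pfkp, the platelet form of phosphofructokinase, was highest in cDC-like cells (297 ± 68.6 CPM) and lower in macrophage-like (86.9 ± 29.1) and microglia-like cells (24.5 ± 8.84), whereas Pfkl, the liver form, was highest in monocyte-like cells (127 ± 44.8) and lowest in CD8 T-like cells (45.3 ± 9.32). Hk1, the constitutive hexokinase, peaked in CD4 T-like cells (64.6 ± 14.4 CPM) and was lowest in microglia-like cells (12.02 ± 3.82), the class where Hk2 was highest. Of the other genes, Ddit4, an inhibitor of mTORC1, was highest in CD4 T-like cells (194 ± 121 CPM), and P4ha1, a collagen prolyl hydroxylase, in microglia-like cells (123 ± 35.9 CPM). P4ha2 and Adm, the vasodilator adrenomedullin, stayed at or below 3.01 CPM on average in each of the 7 classes.

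Macrophage-like and monocyte-like cells were compared within the mice. Of 31 genes tested, 7 were higher in macrophage-like cells, where 41.2% of all genes tested were higher, and 18 were lower, where 17.3% of all genes were lower (edgeR's quasi-likelihood test with each mouse as a block, adjusted p under 0.05). The median log2 difference over the 31 was -0.31, against 0.22 over all genes tested. The genes lower in macrophage-like cells included both transporters. Slc2a1, the glucose transporter GLUT1, was at 112 ± 50.5 CPM in macrophage-like and 191 ± 31.0 CPM in monocyte-like cells (log2 difference -0.83 ± 0.08 SE, adjusted p = 3.29e-07). Slc16a3, the lactate exporter MCT4, was at 131 ± 64.7 and 206.5 ± 76.0 CPM (-0.76 ± 0.11, adjusted p = 2.36e-05). The oxygen sensor Egln3 (-0.54 ± 0.15, adjusted p = 0.00622), Pfkp (-1.04 ± 0.08, adjusted p = 1.94e-08) and Pkm, the last enzyme of glycolysis (-0.44 ± 0.06, adjusted p = 2.8e-05), were lower too, and Vegfa was lower by a smaller step (-0.31 ± 0.10, adjusted p = 0.0162). Mif, a cytokine released by macrophages, was the most clearly higher gene in macrophage-like cells, at 827 ± 218 against 510.5 ± 117 CPM (0.71 ± 0.08, adjusted p = 2.11e-06). Pdk1, a kinase that inhibits the pyruvate dehydrogenase of mitochondria, was higher as well (0.55 ± 0.12, adjusted p = 9.85e-04). For Bnip3, a mitophagy receptor, and for Egln1, the main oxygen sensor, no difference was called (-0.06 ± 0.10 and -0.01 ± 0.10).

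The scaling bears on this split. With trimmed-mean (TMM) scaling 2 genes were higher (Mif and Pdk1) and 21 lower, and over all genes the share of calls that were higher went from 70.5% to 52.0%. Without the mouse block 12 of the genes were called (2 higher and 10 lower), in place of 25. Over all 9885 genes tested, 3771 were higher and 1443 lower without the block, against 4068 and 1706 with it. Among 26 other genes of the pathway that were tested, 7 were higher and 10 lower in macrophage-like cells, the latter including Hif1a, the oxygen-regulated subunit of HIF (-0.93 ± 0.07, adjusted p = 3.48e-08).

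Macrophage-like cells differed more widely from microglia-like cells, the resident macrophages of the brain. Of the genes tested, 24 were higher in macrophage-like cells (20.3% of all genes were) and 4 were lower (32.9% of all genes were). The median log2 difference was 0.93, against -0.13 over all genes tested. Vegfa showed the largest step, with 152 ± 54.4 CPM in macrophage-like and 34.96 ± 18.1 CPM in microglia-like cells, a 4.87-fold difference (log2 2.28 ± 0.18, adjusted p = 3.68e-08). Ankrd37, an ankyrin-repeat protein, was 3.82-fold higher (adjusted p = 6.04e-06) and Pfkp 3.59-fold higher (adjusted p = 1.13e-09). Each of the glycolytic enzymes other than Hk2 was higher, from Pfkl (1.22-fold, adjusted p = 0.0336) to Pfkp, and so were both transporters, each 2.18- to 2.19-fold. The 4 lower genes were Hk2 (log2 difference -0.91 ± 0.08, adjusted p = 1.39e-07), the histone demethylase Kdm3a (-0.50 ± 0.11, adjusted p = 0.00155), Pdk1 (-0.39 ± 0.12, adjusted p = 0.0159) and P4ha1 (-0.37 ± 0.09, adjusted p = 0.00296). All 4 are known as HIF targets in other settings. With TMM scaling Pdk1 was not called, and with DESeq2 neither Pdk1 nor P4ha1 was. Over all genes the share of calls that were higher went from 38.2% to 50.8% with TMM scaling. Hk2 stood apart without overlap, since no macrophage-like value (101.7 to 182.8 CPM) reached the lowest microglia-like one of 191.8 CPM. Of the other pathway genes, Ldhb, the lactate dehydrogenase subunit that favors pyruvate, was lower in macrophage-like cells by a log2 difference of -3.03 ± 0.10 (adjusted p = 1.37e-12).

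Between the T cell classes the genes divided. Of 28 tested, 8 were higher in CD4 T-like than in CD8 T-like cells (24.3% of all genes were) and 4 were lower (8.4% of all genes were), with a median log2 difference of 0.14 against 0.17 over all genes. Ddit4 was at 194 ± 121 CPM in CD4 T-like and 68.8 ± 28.4 CPM in CD8 T-like cells (log2 1.36 ± 0.16, adjusted p = 2.06e-06), and Slc16a3 at 48.55 ± 26.0 and 25.0 ± 13.9 CPM (1.17 ± 0.25, adjusted p = 0.00144). Mxi1, a Myc antagonist (0.94 ± 0.17, adjusted p = 2.42e-04), and Pkm (0.47 ± 0.09, adjusted p = 2.63e-04) were higher, and Mif was lower (-0.57 ± 0.10, adjusted p = 1.28e-04), as was Hilpda, a lipid droplet protein (-0.47 ± 0.14, adjusted p = 0.013). Hif1a was higher in CD4 T-like cells (1.65 ± 0.11, adjusted p = 1.3e-09). TMM scaling turned this split to 5 higher and 10 lower, with the share of all calls that were higher going from 74.3% to 50.9%, and leaving out WT mouse 4 left 7 calls.

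**Figure D2:**
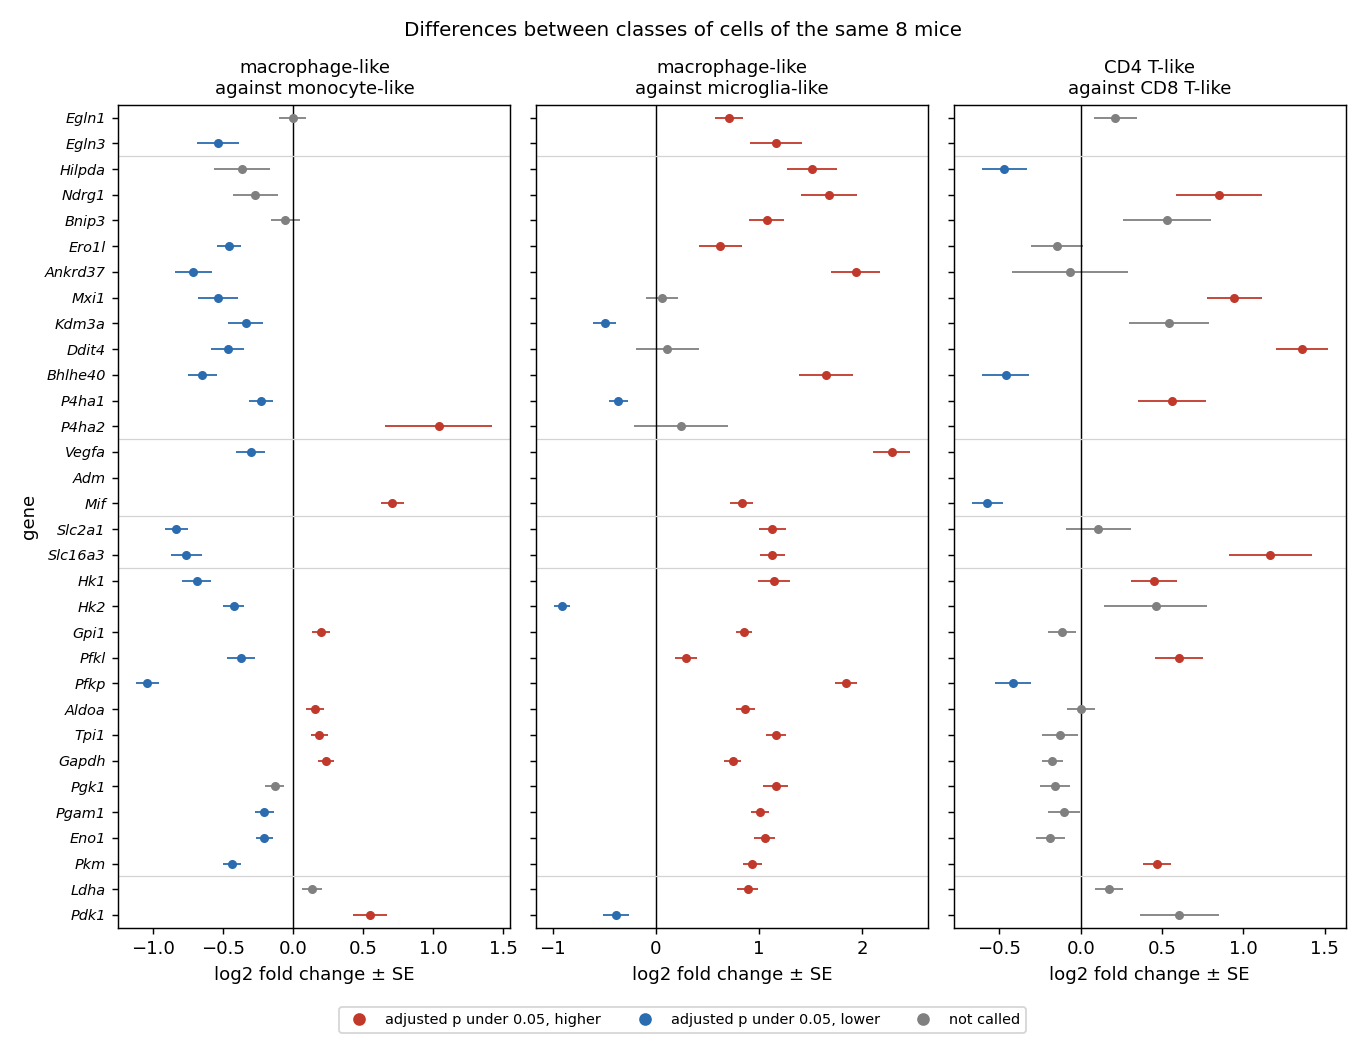
Log2 differences of each gene between macrophage-like and monocyte-like, macrophage-like and microglia-like, and CD4 T-like and CD8 T-like cells, with bars of 1 standard error from the edgeR fit, colored red (higher) or blue (lower) where the adjusted p is under 0.05. Most genes lie right of 0 in the comparison with microglia-like cells and left of it in the comparison with monocyte-like cells.

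In macrophage-like cells, no gene passed the test between CaMKK2KO and WT (0 of 31 tested, where 2.3% of all genes were called). The unadjusted p was under 0.05 for 11 of them, a mark whose count over all genes is not given here for any class. DESeq2 called 6 (Hk2, Pfkl, Pgk1, Slc16a3, Slc2a1 and Tpi1, each higher in CaMKK2KO). Over all 9653 genes tested it called 362 higher and 261 lower. The lowest adjusted p in edgeR was 0.0781, for Pfkl. The estimates were positive for 26 genes and negative for 5, with a median log2 difference of 0.34 against -0.08 over all genes tested, and all 12 glycolytic enzymes had positive estimates (median 0.49). Of the 11 HIF targets, 6 were positive (median 0.08). Every CaMKK2KO mouse lay above every WT mouse for 5 genes, named after their values were seen (Aldoa, Hk2, Pfkl, Pgk1 and Tpi1), while 4.15% of all genes tested had that order.

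CaMKK2KO mouse 2 stood out, with the highest value of the 8 mice for 26 of the 32 genes in macrophage-like cells. Slc2a1 was at 78.5, 89.6, 99.1 and 62.6 CPM in WT mice 1 to 4 and at 98.5, 225.8, 108.8 and 133.8 CPM in CaMKK2KO mice 1 to 4. Slc16a3 was at 86.5, 102.8, 117.2 and 66.0 CPM in the WT mice and at 121.8, 264.7, 100 and 187.1 CPM in the CaMKK2KO mice. For both transporters CaMKK2KO mouse 2 was highest and WT mouse 4 lowest, and the genotypes overlapped through single mice. The estimates were 0.78 ± 0.26 (adjusted p = 0.141) and 0.85 ± 0.30 (adjusted p = 0.159). Averaged over all 32 genes, log2(CPM + 1) was 6.58 ± 0.27 in WT and 6.81 ± 0.38 in CaMKK2KO mice (SD, n = 4), and without CaMKK2KO mouse 2 the difference between the genotypes went from 0.23 to 0.04. With each mouse left out in turn, 0 to 2 genes were called. The upper end came without CaMKK2KO mouse 3, whose values lay nearest to the WT range for several enzymes (2 genes, Pfkl and Tpi1). The share of all genes called without that mouse is not given here, so these 2 calls cannot be set against it.

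Among the enzymes, Gapdh was at 2554, 2448, 2389 and 2074 CPM in WT mice 1 to 4 and at 2546, 3464, 2428 and 2687 CPM in the CaMKK2KO mice. Pkm was at 1107, 1132, 1159 and 809.5 CPM in WT and at 863.1, 1390, 853.9 and 1167 CPM in CaMKK2KO mice. WT mouse 4 was lowest and CaMKK2KO mouse 2 highest for both, and neither enzyme separated the genotypes. The 5 genes with full separation did so narrowly at one end. Pfkl was at 58.7, 83.2, 79.9 and 57.0 CPM in WT and at 107.9, 178.8, 88.0 and 154.5 CPM in CaMKK2KO mice (0.92 ± 0.23, adjusted p = 0.0781), and Tpi1, which interconverts the triose phosphates, was at 534.9, 573.2, 576.9 and 427.5 CPM against 717.4, 1155, 597.1 and 978.2 CPM (0.71 ± 0.20, adjusted p = 0.105). In both, CaMKK2KO mouse 3 was just above the highest WT mouse, and mice 2 and 4 were far above it.

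The oxygen sensors and targets inside the cell overlapped between the genotypes. Egln1 was at 63.9, 52.5, 51.9 and 40.9 CPM in WT and at 44.5, 77.5, 52.5 and 50.1 CPM in CaMKK2KO mice. Egln3, which HIF itself induces, was at 17.7, 13.6, 12.5 and 9.03 CPM in WT and at 16, 42.6, 21.8 and 15.6 CPM in CaMKK2KO mice. Bnip3 was at 143.0, 92.3, 80.4 and 42.1 CPM in WT and at 79.3, 199.2, 97.7 and 104.3 CPM in CaMKK2KO mice. WT mouse 1 had the second-highest Bnip3 and WT mouse 4 the lowest value of Bnip3, Egln1 and Egln3. P4ha1 was at 70.5, 77.3, 97.0 and 88.1 CPM in WT and at 92.6, 134.1, 70.0 and 125.3 CPM in CaMKK2KO mice, so that the lowest and the highest value were both from the knockout. For the other HIF targets, too, WT and CaMKK2KO values overlapped, the widest range being that of Ddit4, from 12.2 CPM in CaMKK2KO mouse 1 to 164.1 CPM in WT mouse 1.

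Of the secreted factors, Vegfa was at 99.2, 167.8, 159.8 and 103.9 CPM in WT mice 1 to 4 and at 123.6, 266.3, 122.2 and 175.4 CPM in the CaMKK2KO mice. Mif was at 720.0, 747.1, 724.7 and 584.0 CPM in WT and at 880.9, 1306, 745.0 and 909.5 CPM in CaMKK2KO mice. Mif in CaMKK2KO mouse 3 fell within the WT range, and the other 3 lay above it (0.47 ± 0.17, adjusted p = 0.169). Of the genes for the fate of pyruvate, Ldha, which turns it into lactate, was at 748.5, 717.8, 732.5 and 528.6 CPM in WT and at 769.7, 1032, 651.9 and 691.6 CPM in CaMKK2KO mice. Pdk1 was at 36.2, 32.1, 25.9 and 21.0 CPM against 27.3, 37.6, 33.5 and 29.4 CPM. Both overlapped between the genotypes. Beside these values, the summed macrophage markers (7 of 7 detected in each genotype) were at 13700 to 16700 CPM in WT and 8870 to 14700 CPM in CaMKK2KO macrophage-like cells, and the median mitochondrial share per cell ran from 1.28% in CaMKK2KO mouse 4 and 1.61% in CaMKK2KO mouse 2 to 3.12% in WT mouse 1. The summed classical monocyte markers (6 of 6 detected) went the other way, at 1660 to 4170 CPM in WT and 2930 to 8000 CPM in CaMKK2KO mice, and the 7 microglia markers were at 263 to 398 against 93.3 to 229 CPM, without overlap. Their part in the gene differences was not tested. All 4 markers of astrocytes and glioma cells together stayed at or below 3.7 CPM.

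**Figure D3:**
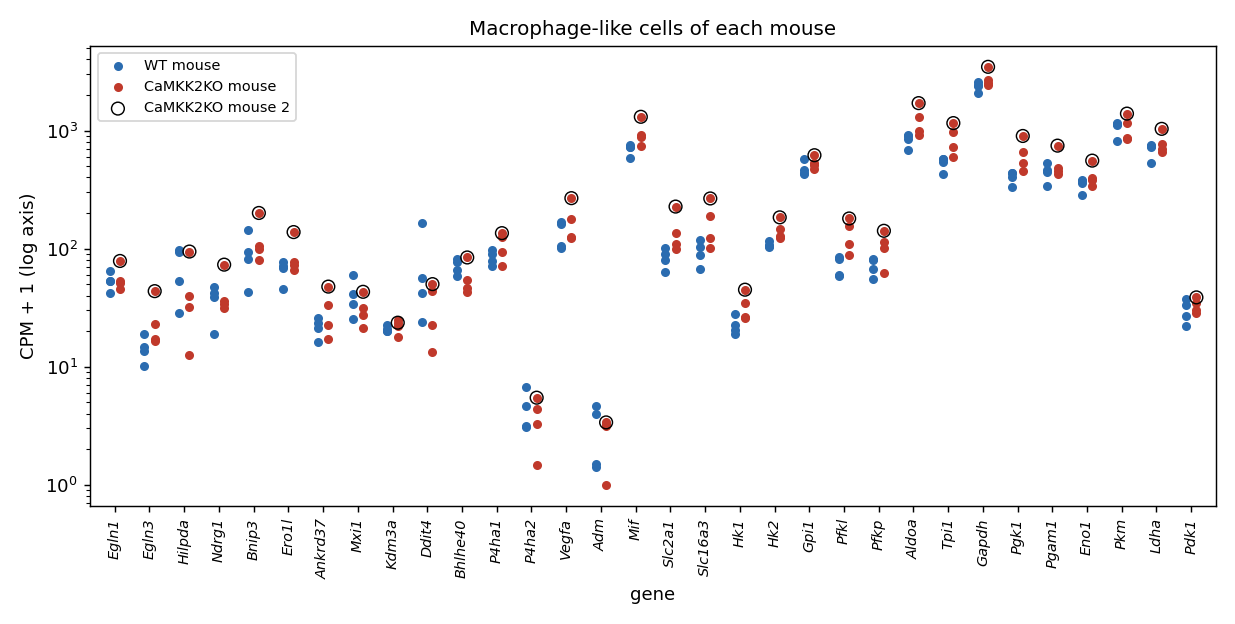
CPM + 1 of the 32 genes in macrophage-like cells on a log axis, 1 point per mouse, WT in blue and CaMKK2KO in red with CaMKK2KO mouse 2 circled. The circled mouse is the highest mouse for most genes, and the groups separate without overlap for Aldoa, Hk2, Pfkl, Pgk1 and Tpi1.

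In the wider list of 41 pathway genes, of which 25 were tested in macrophage-like cells, Car9 and Plod1 were lower in CaMKK2KO. Car9, carbonic anhydrase IX and a classic HIF target, was at 7.33, 7.65, 4.96 and 6.02 CPM in WT mice and at 0.56, 0, 0.60 and 0.46 CPM in CaMKK2KO mice (log2 difference -3.92 ± 0.43, adjusted p = 0.00218). Plod1, a collagen lysyl hydroxylase, was at 79.7, 49.0, 49.6 and 55.0 CPM in WT and at 23.1, 24.5, 21.0 and 16.8 CPM in CaMKK2KO mice (-1.44 ± 0.18, adjusted p = 0.00398). Both genes separated the genotypes fully, in the direction opposite to most of the 32 genes. Every CaMKK2KO mouse lay below every WT mouse for 899 of all 9653 genes tested in this class. Plod1 was lower in microglia-like cells too (-0.78 ± 0.17, adjusted p = 0.0408, and 0.0656 with TMM scaling), as was Hmox1, which degrades heme (-1.92 ± 0.33, adjusted p = 0.0139). In CD8 T-like cells Eno3, another glycolysis gene of this list, was higher in CaMKK2KO (1.71 ± 0.33, adjusted p = 0.0206 in edgeR). Of the 10 genes of the list tested there, DESeq2 called none. In macrophage-like cells DESeq2 called Car9 and Plod1 as well, and also Aldoc, Hif1a and Hk3 as higher in CaMKK2KO (log2 1.16, 0.90 and 1.71, adjusted p = 0.00864, 0.0312 and 0.00388).

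In the other myeloid classes no gene was called by edgeR. The estimates of the glycolytic enzymes were positive for 10 of 12 in monocyte-like cells (median 0.27), 9 of 12 in cDC-like cells (0.28) and 5 of 10 in microglia-like cells (0.02). Those of the HIF targets were positive for 4 of 10 (median -0.22), 4 of 7 (0.45) and 3 of 6 (0.01). No oxygen sensor tested had a positive estimate in these classes. Over all genes tested the median was -0.02, 0.06 and -0.12 in these classes. In microglia-like cells the scaling moved the signs. There 12 of the 23 genes tested were positive (median 0.06), and with TMM scaling 15 were (median 0.18, against -0.01 over all genes). In monocyte-like cells 0 of 30 were called (2.04% of all genes), with 11 at an unadjusted p under 0.05. DESeq2 called 4 there (Bhlhe40 and Ddit4 lower in CaMKK2KO, Mif and Tpi1 higher). Over all 5777 genes tested there, DESeq2 called 140 higher and 109 lower. Tpi1 came nearest, at 398.2, 513.1, 492.4 and 412.0 CPM in WT and 726.4, 898.1, 538.7 and 866.2 CPM in CaMKK2KO mice (0.73 ± 0.18, adjusted p = 0.0642), with each CaMKK2KO mouse above each WT mouse. Bhlhe40 went the other way, at 192.1, 131.8, 105.7 and 113.9 CPM against 71.0, 87.5, 79.4 and 66.5 CPM (-0.77 ± 0.19, adjusted p = 0.0684), again without overlap. Mif, like Tpi1, had every CaMKK2KO mouse above every WT mouse. Of all 5777 genes tested in monocyte-like cells, 235 had that order and 282 the opposite one. In microglia-like cells 0 of 23 were called (1.68% of all genes), with 4 at an unadjusted p under 0.05 and none by DESeq2. In cDC-like cells 0 of 25 were called (0.789% of all genes), with 4 at an unadjusted p under 0.05 and none by DESeq2.

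Whether the genotype difference itself differed between macrophage-like cells and the other myeloid classes was tested as an interaction. Against monocyte-like cells 0 of the genes were called (0.132% of all genes), with 10 at an unadjusted p under 0.05 and 1, Vegfa, by DESeq2. Over all 9885 genes tested, DESeq2 called 24 higher and 18 lower in this interaction. Vegfa was also the lowest in edgeR (log2 0.95 ± 0.20, adjusted p = 0.0786). In monocyte-like cells its values were 126.5, 339.4, 279.3 and 167.5 CPM in WT and 158.0, 174.2, 134.4 and 126.6 CPM in CaMKK2KO mice, so that the knockout lay lower on average there and higher in macrophage-like cells. Against microglia-like cells 0 were called (0.0697% of all genes), with 6 at an unadjusted p under 0.05 and none by DESeq2.

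In NK-like cells 3 of 26 genes were called, where 3.06% of all genes were. Ddit4 was at 149.1, 72.1, 121.9 and 98.7 CPM in WT mice 1 to 4 and at 35.9, 59.2, 66.3 and 51.2 CPM in CaMKK2KO mice, a 2.01-fold lower level (log2 difference -1.01 ± 0.22, adjusted p = 0.0216). Vegfa was at 66.85, 75.0, 81.5 and 90.3 CPM in WT and at 49.97, 61.1, 44.2 and 36.6 CPM in CaMKK2KO mice, 1.61-fold lower (-0.68 ± 0.15, adjusted p = 0.0256). Pfkp was at 100.7, 118.3, 117.1 and 101.0 CPM in WT and at 141.6, 176.7, 128.9 and 171.2 CPM in CaMKK2KO mice, 1.40-fold higher (0.49 ± 0.12, adjusted p = 0.0466). All 3 separated the genotypes, and so did Mif, which was not called. The directions of Ddit4 and Pfkp were not particular to NK-like cells. Without an edgeR call, Ddit4 was negative in each other class, from -0.50 in CD8 T-like to -1.52 in monocyte-like cells. Pfkp was positive in each other class where it was tested, from 0.26 in cDC-like to 0.59 in CD4 T-like cells. Vegfa was negative in monocyte-like cells (-0.66) but positive in macrophage-like (0.37) and microglia-like cells (0.96). Of the 26 genes tested, Pfkp thus had every CaMKK2KO mouse above every WT mouse, an order seen in 7.85% of all genes, and Ddit4, Vegfa and Mif had every one below, seen in 3.39%. With TMM scaling and with DESeq2, Ddit4 and Vegfa were called and Pfkp was not. Of all 6610 genes tested, DESeq2 called 119 higher and 111 lower, and TMM scaling gave 91 higher and 77 lower. No gene was called without CaMKK2KO mouse 1, CaMKK2KO mouse 4, WT mouse 3 or WT mouse 4, each left out in turn. The 7 summed macrophage markers were at 131 to 175 CPM in WT and 80.5 to 114 CPM in CaMKK2KO NK-like cells, the 6 classical monocyte markers at 638 to 920 and 1090 to 1220 CPM, and the 5 non-classical monocyte markers at 102 to 150 CPM (Ace, Ear2 and Adgre4 at 0) and 187 to 290 CPM. None of these sums overlapped between the genotypes, and their part in the calls was not tested. The non-classical sum of the WT mice came from Treml4 and Spn alone. Whether NK-like cells express markers of these lists themselves was not tested either. With each cell thinned to 3000 UMIs, the Vegfa difference was -0.30 on the log2 scale, and no gene was called. CD8 T-like cells showed 0 of 25 called (1.11% of all genes), with 7 at an unadjusted p under 0.05 and 1 by DESeq2, which was again Pfkp, at 116.4, 146.5, 171.9 and 130.1 CPM in WT and 192.3, 236.7, 201.9 and 226.8 CPM in CaMKK2KO mice (adjusted p = 0.0673 in edgeR). Over all 5328 genes tested in that class, DESeq2 called 30 higher and 74 lower. The enzymes had positive estimates for 10 of 11 in CD8 T-like cells (median 0.31) and for 7 of 11 in NK-like cells (0.03). The HIF targets had them for 4 of 8 in CD8 T-like (median 0.05) and 4 of 8 in NK-like cells (-0.04). Over all genes tested the median was 0.06 in CD8 T-like and 0.07 in NK-like cells.

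In CD4 T-like cells 2 glycolytic enzymes, Tpi1 and Aldoa, were higher in the knockout. They were the 2 genes called of 19 tested, where 2.27% of all genes were, and 13 had an unadjusted p under 0.05. Tpi1 was at 98.4, 230.1, 183.4 and 220.1 CPM in WT mice 1 to 4 and at 525.5, 492.0, 408.6 and 339.0 CPM in CaMKK2KO mice, 2.22-fold higher (log2 1.15 ± 0.20, adjusted p = 0.00932). Aldoa, which splits fructose bisphosphate, was at 334.4, 686.9, 631.7 and 472.1 CPM in WT and at 1109, 950.2, 946.0 and 975.7 CPM in CaMKK2KO mice, 1.79-fold higher (0.84 ± 0.17, adjusted p = 0.0213). WT mouse 1, with 7 cells, was lowest for both, and neither gene overlapped between the genotypes with or without it. All 11 tested enzymes had positive estimates (median log2 0.59), and over the 19 genes the median was 0.53 against -0.04 over all genes tested. Of the 4 HIF targets tested, 2 were positive (median -0.12). Every CaMKK2KO mouse was above every WT mouse for 10 of the 19 genes, an order seen in 6.02% of all genes tested. The count of calls moved with the setting, to 8 in DESeq2, to 6 without WT mouse 1, and to 1 (Tpi1) without WT mouse 4 or CaMKK2KO mouse 1. Over all 3175 genes tested, DESeq2 called 60 higher and 43 lower. Against CD8 T-like cells, the interaction called 0 genes (0.349% of all genes), with 10 at an unadjusted p under 0.05 and 7 by DESeq2, and the lowest adjusted p in edgeR was 0.0967, for Gapdh. Over all 6593 genes in this interaction, DESeq2 called 100 higher and 18 lower.

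The makeup of the CD4 T-like cells moved with genotype. The 3 markers of regulatory T cells summed to 2520 to 3270 CPM in WT and 642 to 2050 CPM in CaMKK2KO mice, and the share of CD4 T-like cells with a UMI of Foxp3, their defining factor, was 53.1% to 85.7% in WT and 15.6% to 54.2% in CaMKK2KO mice. In all CD4 T-like cells that share was 39.4% (median 7004 UMIs per cell) and in NK-like cells, which should lack the gene, 0.587% (7560 UMIs). Split on Foxp3 after the values were seen, the cells with no Foxp3 UMI had Tpi1 at 100, 247.4 and 85.2 CPM in WT mice 2 to 4 and at 458.9, 501.8, 356.8 and 371.5 CPM in CaMKK2KO mice. WT mouse 1 had 1 such cell. Aldoa in those cells was at 587.7, 553.1 and 450.2 CPM in WT mice 2 to 4 and at 1086, 957.1, 915.2 and 1063 CPM in CaMKK2KO mice. Both genes kept the genotypes apart in these cells. They were chosen because they were called in all CD4 T-like cells, of which these cells are a part. The order here is therefore no separate support, and its share over all genes is not given. In the cells with a Foxp3 UMI, Tpi1 ran from 148.9 to 281.5 CPM in WT and from 208.1 to 607.3 CPM in CaMKK2KO mice, and Aldoa from 444 to 726.1 CPM and from 624.4 to 1138 CPM. Both overlapped, through CaMKK2KO mouse 4, which had 10 such cells. At this depth a regulatory T cell can lack a Foxp3 UMI. Summed markers of cycling cells ranged from 59.0 to 1260 CPM in WT and from 277 to 1050 CPM in CaMKK2KO mice, and their part was not tested.

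**Figure D4:**
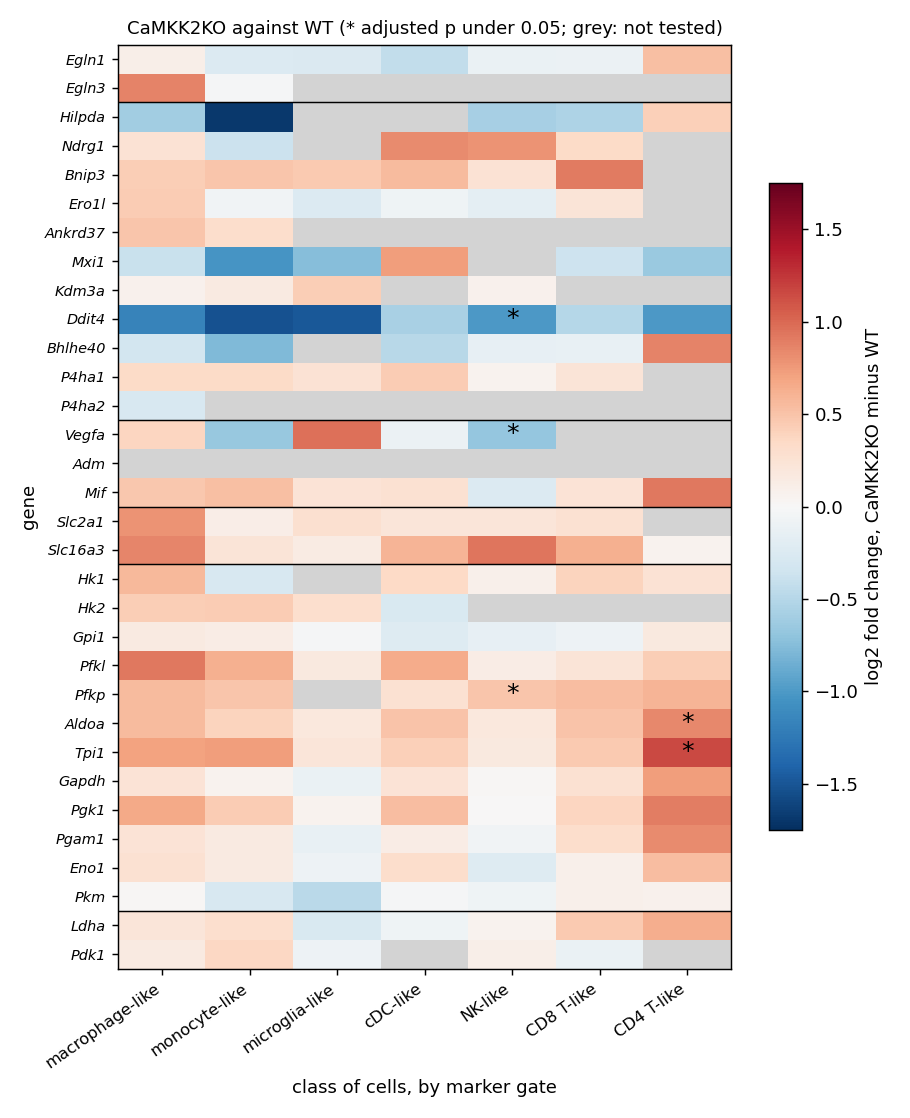
Log2 difference between CaMKK2KO and WT of each gene tested in each of the 7 classes, from edgeR, as a color scale (red is higher in CaMKK2KO, grey was not tested) with a star on each of the 5 calls. The estimates of the glycolytic enzymes lie mostly above 0 in macrophage-like, monocyte-like, cDC-like, CD8 T-like and CD4 T-like cells and around 0 in NK-like and microglia-like cells. In microglia-like cells the median over all genes tested was -0.12.

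Within the macrophage-like class the genes also varied from cell to cell. Each gene was correlated across the 334 to 635 macrophage-like cells of each mouse, on the log scale of UMIs per cell total, with the mean of the hypoxia genes (16 genes: the oxygen sensors, the HIF targets, Vegfa, Adm and Slc2a1) and with the mean of the 12 glycolytic enzymes, the gene itself left out. Cells of a mouse share their library and differ in depth, and the correlations are a description without a test. Bnip3 followed the hypoxia genes most closely, with a mean r over the mice of 0.647 (range 0.519 to 0.735), before Tpi1 (0.591), Slc2a1 (0.586) and Ero1l, an oxidase of the endoplasmic reticulum (0.582). Kdm3a (0.182) and Hk1 (0.201) followed them least, and Ddit4 ranged from -0.0472 to 0.496 between mice. Against the mean of the enzymes, the single enzymes ranged from 0.185 for Hk1 to 0.762 for Tpi1, with Pgk1 (0.757) and Aldoa (0.755) next to Tpi1, and the HIF targets from 0.137 to 0.66. Mif had a higher r with the enzymes (0.738) than with the hypoxia genes (0.529). Its r with the hypoxia genes was near that of Hilpda (0.525) and Vegfa (0.503). Gapdh (0.737 and 0.512) and Ldha (0.718 and 0.544) had a similar gap. Most enzymes had more UMIs per cell than the hypoxia genes, and the part of this in the gap was not tested. Bnip3 had about the same r with the enzymes (0.66) as with the hypoxia genes. Hk2 followed neither strongly (0.259 with the enzymes and 0.393 with the hypoxia genes).

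After thinning of each cell to 3000 UMIs, which kept 3919 macrophage-like cells, the sum of the 16 hypoxia genes per macrophage-like cell averaged 1.77 to 4.36 UMIs over the mice and reached 68 UMIs in single cells, with WT mouse 4 lowest and CaMKK2KO mouse 2 highest. In B-like cells, a class low in these genes, it averaged 0.333 to 0.971 UMIs. The monocyte-like sum averaged 2.87 to 4.9 UMIs. Of the single genes, Hilpda had on average the highest ratio of variance to mean over macrophage-like cells. Its variance was 4.04 times its mean, but this ranged from 0.96 to 13.5 between mice. Gapdh came next at 3.71, with a range of 2.89 to 4.74. This ratio can rise with the level of a gene, so it does not rank how evenly different genes were spread. Gapdh averaged 7.48 UMIs per thinned macrophage-like cell and Hilpda 0.168.

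**Figure D5:**
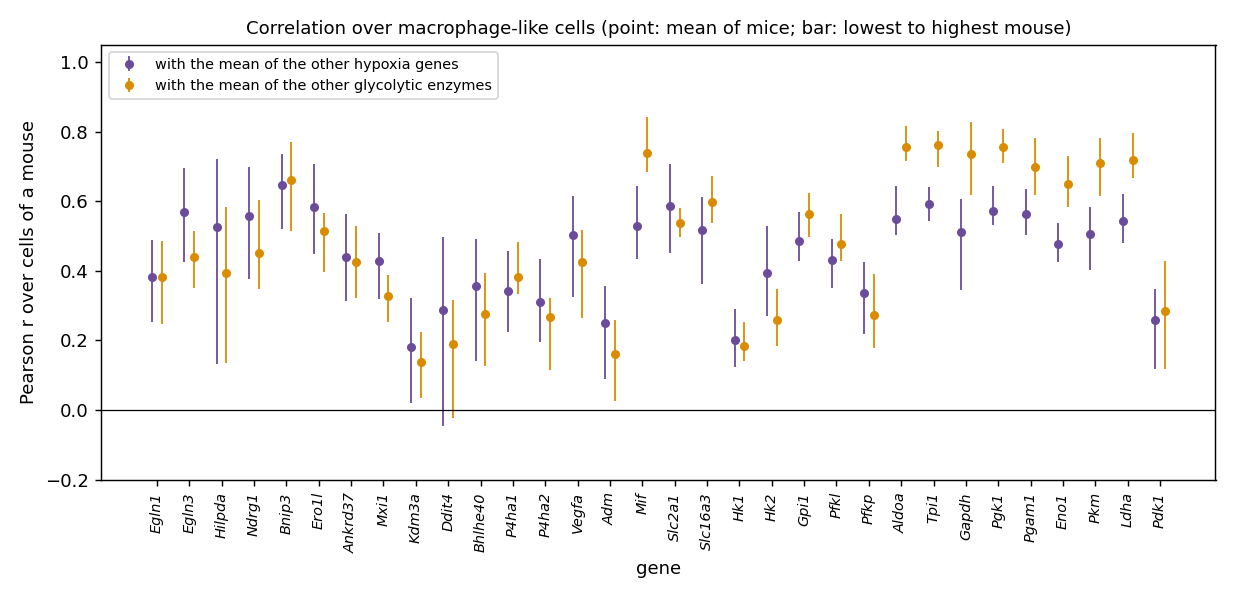
Correlation of each gene with the mean of the hypoxia genes and with the mean of the glycolytic enzymes across macrophage-like cells, as the mean over 8 mice (7 for Adm; points) with bars from the lowest to the highest mouse. Bnip3 has the highest value on the hypoxia axis (0.647) and Tpi1 on the glycolysis axis (0.762).

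Of 9597 genes ranked in macrophage-like cells by their correlation with the hypoxia mean, with the members and the other pathway genes left out, the highest were Tmem189 (mean r 0.429), Higd1a, a mitochondrial protein induced by hypoxia (0.426), Mgarp (0.422), Arg1, the arginase of alternatively activated macrophages (0.42), and Srgn (0.415), followed by Nos2, the inducible nitric oxide synthase (0.407). Nos2 was at 10.6, 11.8, 9.68 and 2.11 CPM in WT mice and at 8.23, 143.3, 17.3 and 55.6 CPM in CaMKK2KO mice. Arg1 was at 663.7, 726.3, 436.7 and 168.9 CPM in WT and at 1450, 2245, 574.9 and 282.7 CPM in CaMKK2KO mice. Both were highest in CaMKK2KO mouse 2, the mouse with the highest hypoxia and glycolysis genes, and lowest in WT mouse 4. At the other end stood Ly6e (-0.329), Aif1, the microglial and macrophage protein IBA1 (-0.307), Serinc3 (-0.302), Ctss (-0.291) and Pld4 (-0.29).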

How the data were processed

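Live CD45+ cells were read with the 10x 3′ assay (v3.1 chemistry), and the deposited matrices hold UMI counts per gene and cell barcode that the authors made with bcl2fastq 2.20, Cell Ranger 4.0.0 and STAR 2.7.5c on mm10 (submitters' processing notes, which also name Seurat). Cells were assigned to mice from the hashtag counts (HTODemux in Seurat 5.3.0, quantile 0.99). Cells beyond 3 median absolute deviations in UMIs, genes or mitochondrial share, or with fewer than 200 genes, were left out. The automatic Scrublet threshold marked next to no cells, so the highest-scoring cells up to the number the loading predicts were removed (89 WT and 106 CaMKK2KO cells). Classes required a number of markers with a UMI, and 4.67% of WT and 5.88% of CaMKK2KO cells stayed unclassified. The gates were set after marker counts had been seen, and the 32 genes and all lists were chosen with earlier results of these data known. For the 7 classes tested, 73.1% (monocyte-like) to 99.3% of the gated cells fell in clusters made mostly of that class, CD4 and CD8 T-like cells sharing the T cell clusters.

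For each class, the UMI sums of the mice went into edgeR 4.0.16 (quasi-likelihood, scaled by total UMIs, a minimum of 200 UMIs per gene and class, Benjamini-Hochberg over all genes tested, called at 0.05). Contrasts between classes had the mouse as a block, because classes came from the same animal. Genotype contrasts had none, since mouse numbers are hashtags and pair nothing. DESeq2 1.42.0, TMM scaling, limma 3.58.1 and other filters were alternatives. Scripts were tested on simulated data. Every mouse of the members called between genotypes is given, and of the 2 genes of each role with the most UMIs in macrophage-like cells. Aldoa has a second row (1 UMI), and Eno1 a near copy, Eno1b (1413 UMIs), with which reads may be shared.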

Additional observations from a re-analysis of the deposited data

Results flagged for a closer look

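In macrophage-like cells of the 4 WT mice, WT mouse 4 stood apart below the others for Ldha (528.6 CPM), Mif (584.0 CPM) and Pkm (809.5 CPM). Among the means of log2(CPM + 1) over the 32 genes, CaMKK2KO mouse 2 lay above the other CaMKK2KO mice in macrophage-like cells (7.38), WT mouse 3 lay above the other WT mice in microglia-like cells (6.23), WT mouse 1 lay above them in NK-like cells (6.01), and WT mouse 1, with 7 cells, lay below them in CD4 T-like cells (5.07). Each is a single mouse whose gap to the nearest other mouse of its genotype passed Dixon's critical share of the range of the group. Of 62 sets of 4 mice examined, 7 met this mark, and chance alone marks about 1 in 20.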

How the results depend on the processing

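Counts are of those of the 32 genes that were tested in a setting and called at an adjusted p under 0.05. The number tested changes with the filter and the classes. Calls over all genes are given with the results above for DESeq2. They are not given for other filters, thinned cells, limma, classes from clusters, outlying cells kept or a mouse left out. A change of the count in those settings may therefore be shared by all genes. Genotype differences called by edgeR in macrophage-like cells went from 0 to 6 with DESeq2 and 1 with no filter on low counts (0 to 2 with each mouse left out in turn), in microglia-like cells to 1 with classes from clusters, in monocyte-like cells to 4 with DESeq2 and 5 with no filter (0 to 2), and in CD8 T-like cells to 1 with DESeq2 and 7 with no filter (0 to 1). In NK-like cells the 3 calls went to 0 with thinned cells, 1 with limma on cells weighted equally and 6 with no filter (0 to 4). In CD4 T-like cells the 2 calls went to 8 with DESeq2, 5 with TMM scaling, 6 with a filter of 50 UMIs, 6 with thinned cells, 8 with classes from clusters, 9 with no filter and 6 with outlying cells kept (1 to 6). Of all 3175 genes tested there, TMM scaling called 47 higher and 30 lower, against 41 and 31 in the main fit. Macrophage-like against monocyte-like cells gave 16 calls with thinned cells and 12 with no replicate block (the mouse) in place of 25, and 19 to 24 with a mouse left out. CD4 T-like against CD8 T-like cells gave 3 calls with thinned cells in place of 12, and 7 to 15 with a mouse left out. The interaction of genotype with macrophage-like or monocyte-like class gave 1 call with DESeq2, with 50 UMIs and with thinned cells, 4 with classes from clusters and 7 with no filter (0 to 1), with microglia-like class 1 with no filter, and with the T cell classes 7 with DESeq2, 1 with classes from clusters and 3 with no filter (0 to 1). The difference in the mean over the 32 genes in monocyte-like cells was -0.26 with classes from clusters in place of 0.02. The cause was not tested in any of these. None of the values reversed a call, 342 were marked as the same, 49 as moved and 28 as weaker. A count was marked as the same within 1.5-fold of its main value. A difference in means was so marked if it shifted by less than the pooled SD of the mice, even where its sign changed. A single gene was so marked if it was still called in the same direction. Among single genes, Tpi1 in CD4 T-like cells was called in 18 of 18 settings and Aldoa in 16. In NK-like cells Ddit4 and Vegfa were each called in 10 and Pfkp in 8, with log2 differences from -1.17 to -0.83, from -0.86 to -0.30 and from 0.40 to 0.58. Adjusted p ranged from 6.64e-08 to 0.0448 for Tpi1, from 1.91e-06 to 0.0951 for Aldoa and from 5.09e-04 to 0.578 for Vegfa. Genotype contrasts of 4 mice against 4 hold the noise of single mice, and CD4 T-like sums of WT mouse 1 rest on 50836 UMIs.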
